A study of Rattus norvegicus with 5 samples.

Results

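Aldo-keto reductases of the Akr1 and Akr7 families were followed in 4 rat hepatocellular carcinoma lines and in normal rat liver. The family was taken as every array probe whose platform gene symbol starts with Akr1 or Akr7, which gave 17 of 33849 discovery probes and 14 of 12198 named genes. RNA was measured on 5 single-colour CodeLink Rat Whole Genome slides, 1 sample on each. Metastatic ability is low for the C5F and C6 lines and high for N1 and L2. The 4 lines derive from male F344 rats given diethylnitrosamine and N-nitrosomorpholine, with an age of 31 weeks in the labels. The reference was the liver of a male SD rat, untreated and 50 weeks old. Strain, age, carcinogen treatment, tumour and culture therefore differ together between the lines and the liver and cannot be told apart. With a single array per line, each class of metastatic ability has 2 lines as replicates, and there is no second liver.

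Aldo-keto reductases are soluble enzymes that use NADPH, or NADH in some cases, to turn aldehydes and ketones into alcohols. Members of the Akr1b branch reduce sugars, lipid aldehydes and retinal, those of the Akr1c and Akr1d branches act mainly on steroids and bile acid precursors, and those of the Akr7 branch reduce dialdehydes. The liver carries many of them for bile acid synthesis, steroid breakdown and detoxification, and human AKR1B10 is known as a gene that is often raised in hepatocellular carcinoma.

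All values below are log2 normalised signals unless a sentence says otherwise. The scanner software called each spot above or near background. Signals under a floor of 2.53, which is 1.34 on the log2 scale, were set to that floor. The scanner called 30.6% of discovery probes above background in liver and 32.7% to 39.2% in the lines. Of the 17 family probes, the liver array had 12 above background, C5F 9, C6 and N1 11 each and L2 10. Probes with a level above background in at least 2 lines, or else in liver, were kept, and 14 of the 17 were. Akr1c15 and both Akr1e2 probes were not kept.

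Hepatocyte markers checked the labels. In liver, 6 of the 7 markers were above background and Apoa1, an apolipoprotein, had no usable spot. In C5F 5 of 7 were above background, and in C6, N1 and L2 none of the 7 was. Alb, the main plasma protein of hepatocytes, was at 11.47 in liver and at the floor in all 4 lines. The summed normalised signal of these markers was 39027 in liver, 3311 in C5F and between 22.2 and 34.5 in the other 3 lines. The liver sum is without Apoa1, which gave 1041 of the C5F sum. Markers of other liver cells also differed. The sum over 3 Kupffer cell markers was 2720 in liver and 44.7 to 68.3 in the lines. Clec4f, the Kupffer cell lectin, was above background in all 4 lines at 4.37 to 4.65, Cd68 in C6 and N1, and Cd163 in C5F and L2. Of the endothelial markers Stab2, Lyve1 and Kdr, all 3 were above background in liver and none in any line, while Pecam1 was above background in all 4 lines, at 4.02 to 4.40, and had no usable spot in liver. Of the stellate cell and fibroblast markers, Dcn, a proteoglycan, was above background in liver alone. The collagen gene Col1a1 was above background in liver, C5F and N1 at 7.56, 7.10 and 7.49, and Col1a2 in C5F and L2 at 7.07 and 7.12, with their other spots not usable. Krt19, a bile duct keratin, was above background in C5F, C6 and L2 and had no usable spot in liver or N1. Of the other bile duct markers, Epcam was above background in liver at 5.61 and in C5F at 6.21 and near background in L2, and Sox9 was near background on all 5 arrays. Of the steroidogenic markers, Cyp17a1 was above background wherever its spot was usable and Cyp11a1 in C5F, C6 and L2. For a gene that is lower in the lines, a loss of a cell type and less RNA per cell cannot be told apart in these bulk samples. The part of the other cell types in the family's differences was not tested.

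The Akr1b genes form an unbroken run on chromosome 4 of the rat RefSeq annotation (GRCr8), in the order Akr1b1, Akr1b8, Akr1b10 and Akr1b7. The first pair rose in the carcinoma lines and the second pair fell, as described below. The RefSeq table held the 250 bases before the annotated start of 3 of these 4 genes. They are shown because these neighbours moved in opposite directions. Each is written 5′ to 3′ on the strand of its gene, and capitals mark the only match to the motifs searched, a CCAAT box.
Akr1b8: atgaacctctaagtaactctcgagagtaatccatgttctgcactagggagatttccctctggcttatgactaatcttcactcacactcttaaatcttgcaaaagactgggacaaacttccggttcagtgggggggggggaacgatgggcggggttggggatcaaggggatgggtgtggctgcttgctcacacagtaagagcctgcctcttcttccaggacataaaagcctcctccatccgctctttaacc
Akr1b10: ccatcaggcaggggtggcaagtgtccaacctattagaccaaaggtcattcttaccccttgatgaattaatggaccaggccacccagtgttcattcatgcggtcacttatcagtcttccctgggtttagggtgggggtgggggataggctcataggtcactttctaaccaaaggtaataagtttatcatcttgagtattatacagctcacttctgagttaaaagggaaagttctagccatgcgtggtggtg
Akr1b7: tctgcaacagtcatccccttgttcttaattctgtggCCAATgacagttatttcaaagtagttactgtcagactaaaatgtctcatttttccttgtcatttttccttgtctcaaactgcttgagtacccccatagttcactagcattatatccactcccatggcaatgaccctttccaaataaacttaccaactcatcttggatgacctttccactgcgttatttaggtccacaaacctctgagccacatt
The windows lie at chr4:63964171-63964420 for Akr1b8, chr4:64005382-64005631 for Akr1b10 and chr4:64043720-64043969 for Akr1b7, all on the plus strand. They hold 50.8%, 46.8% and 40.4% G and C. Aligned end to end, the 3 pairs of windows were 44.7% to 51.0% identical, which lies within the 44.6% to 56.3% over the 66 pairs among the 12 family windows in the table. The antioxidant response element core TGACNNNGC, the AP-1 site TGANTCA, the HNF1 half-site GTTAAT, the C/EBP site TTNNGCAAT and the TATA box TATAAA, read on both strands, had no match in the 3 windows. The letters of the AP-1 site and the antioxidant core can overlap. Of 27457 windows in the table, 10.2% hold the antioxidant core, 6.36% the AP-1 site, 6.46% the HNF1 half-site, 2.02% the C/EBP site, 13.1% the TATA box and 34.3% the CCAAT box. These letters say nothing of whether a factor binds there.

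**Figure D1:**
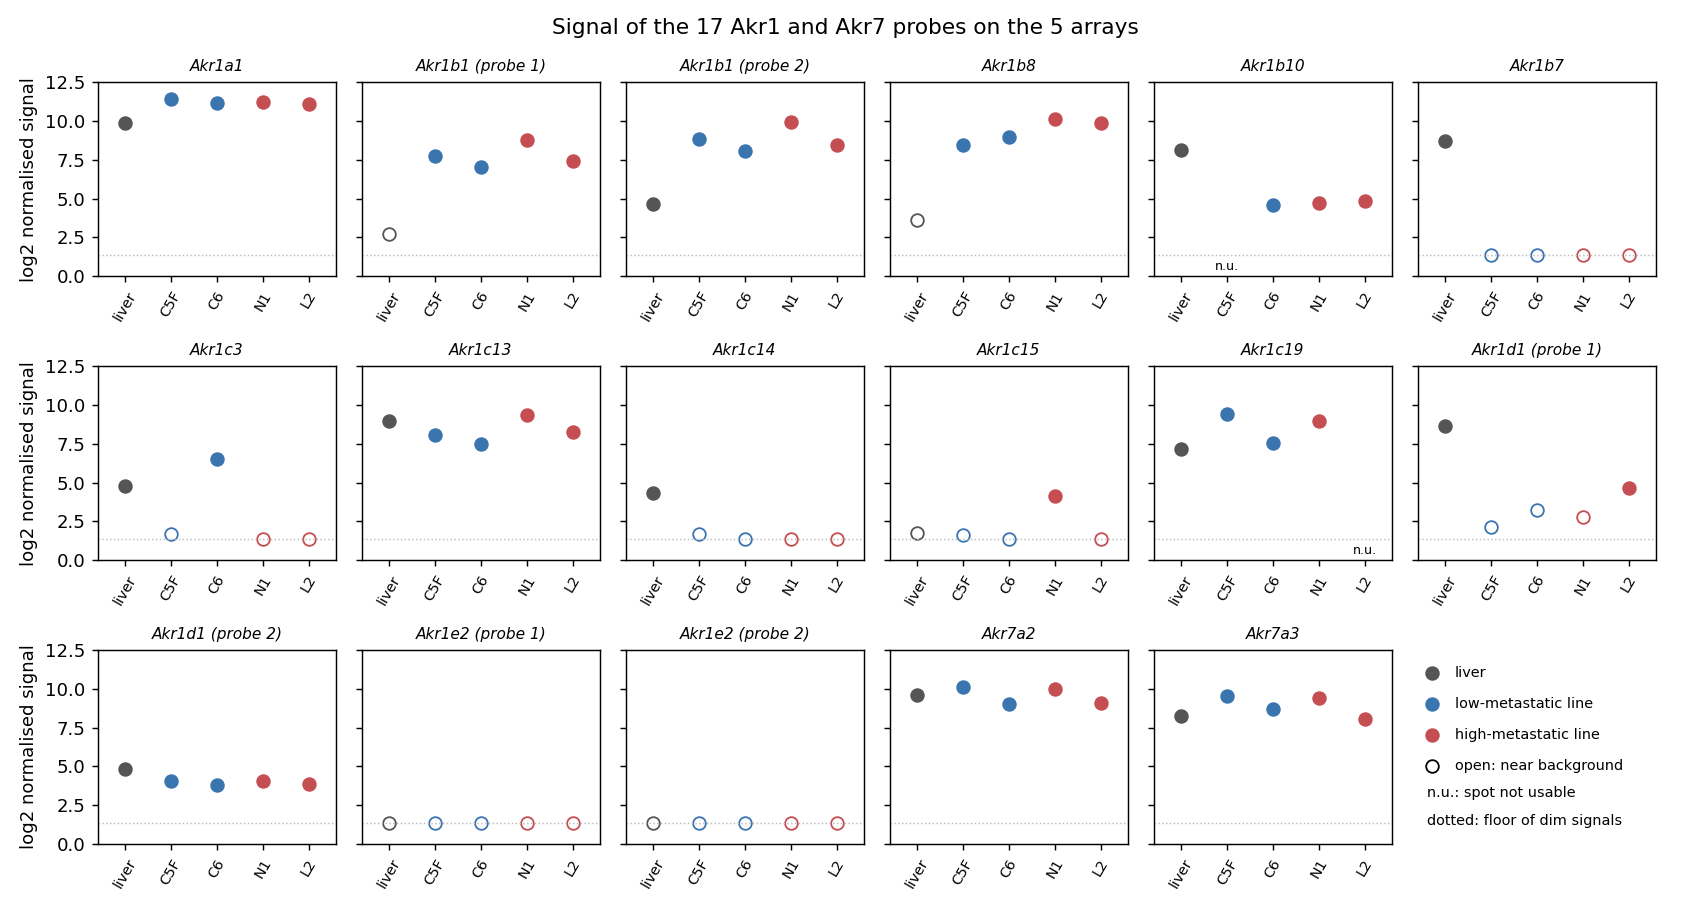
Log2 normalised signal of the 17 Akr1 and Akr7 probes (vertical axes) on the 5 arrays (horizontal axes), 1 panel per probe and 1 point per array, with open points near background and n.u. for a spot that could not be used. The liver point lies below all measured lines for Akr1a1, Akr1b1, Akr1b8 and Akr1c19, and above all measured lines for Akr1b10, Akr1b7, Akr1c14 and Akr1d1. Akr1c19 and Akr1b10 have 3 measured lines each. Probe 1 of Akr1b1 is its dimmer probe and probe 1 of Akr1d1 its brighter one.

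The first comparison sets the 4 carcinoma lines against normal liver. Across the family, Akr1a1, Akr1b1 and Akr1b8 rose in the lines, and Akr1b7, Akr1b10, Akr1c14 and Akr1d1 fell. By limma's test with Benjamini-Hochberg adjustment over all 11949 probes tested, 8 family probes passed an adjusted p of 0.05, 4 higher and 4 lower, which is 3 genes higher and 4 lower of 12 tested. Of all tested probes 18.4% passed, 9.01% higher and 9.38% lower. At an unadjusted p under 0.05 there were 9 family probes, against 38.6% of all tested. Of 12 kept family probes usable on all 5 arrays, 4 had every line above liver, against 37.3% of all such probes, and 4 had every line below, against 34.5%. Akr1b7 and Akr1c14, near background in all lines, were kept only because they were above background in liver, so they had to be lower in the lines. The brighter Akr1d1 probe was also kept only through liver, with L2 alone of the lines above background. Akr1b8 and the dimmer Akr1b1 probe, near background in liver, were kept only through the lines, which favours a higher level there. The family's count is therefore a description. The median difference was −0.36 over the 14 family probes and 0.15 over all probes. The median size, with signs left out, was 2.48 and 0.91. The counts rest on every line. Without C5F or without C6, 0 of the family probes and 0 of all probes passed, and without N1 or without L2 the family count was 2, Akr1b8 higher and Akr1b7 lower. The split was 2 higher and 4 lower when arrays were scaled to the median of their probes above background, to the 75th percentile, or by the authors' own median division. The 5 arrays allow no exact permutation p below 0.2 for this comparison. Limma's test combines each probe's own spread between lines of a class with the spread over all probes.

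**Figure D2:**
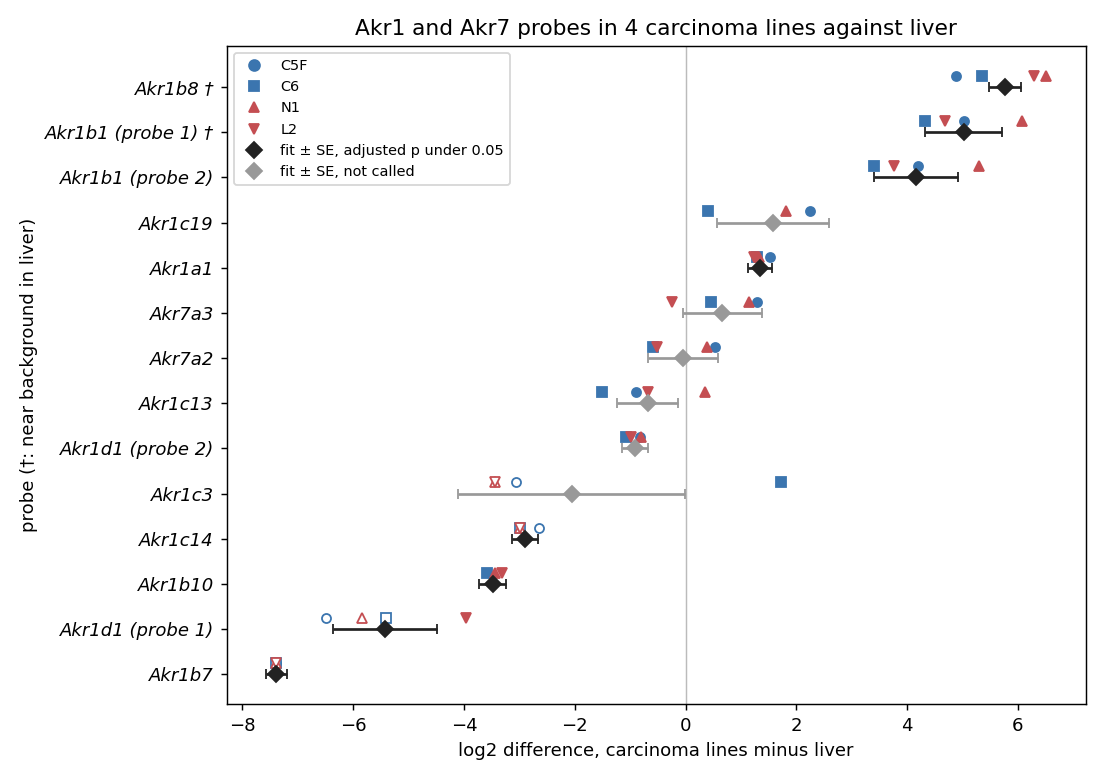
Log2 difference of the carcinoma lines from liver (horizontal axis) for the 14 family probes kept (vertical axis), with a diamond and bar for the fit and its SE and a smaller mark for each line, open where the line was near background. Akr1b8 stands at 5.76 and Akr1b7 at −7.39, and sizes next to open marks depend on the floor.

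Akr1b8, an aldose reductase-like enzyme known in mouse as a protein induced by fibroblast growth factor, showed the largest rise of the family. It was at 3.60 and near background in liver, while C5F read 8.48, C6 8.96, N1 10.11 and L2 9.89. All 4 lines were bright and none overlapped the liver. The signal was at least 45.0-fold higher in the lines than in liver, a bound that puts the liver at the dimmest above-background spot of its array. The fitted difference was 5.76 ± 0.29 (SE, n = 4 lines against 1 liver; limma adjusted p = 0.00866). It passed under all 9 other settings that kept the 5 arrays (limma adjusted p from 0.00402 to 0.0173). The probe was near background in liver and kept only through the lines, which favours a higher level there. Its calls are therefore a description and add no support, and the fitted size rests on a near-background liver spot.

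Akr1b1, aldose reductase, which turns glucose into sorbitol, has 2 probes on the array, and both rose. The brighter probe was at 4.67 in liver, while C5F read 8.86, C6 8.07, N1 9.96 and L2 8.44. N1 was the highest line and C6 the lowest on both probes, and every line lay above liver. Its difference was 4.17 ± 0.76 (SE, n = 4 against 1; limma adjusted p = 0.0470), a 17.9-fold rise. The dimmer probe, near background in liver, read 7.75, 7.04, 8.80 and 7.40 in C5F, C6, N1 and L2. It was at least 14.7-fold higher in the lines (limma adjusted p = 0.0315). The call on the brighter probe held under 4 of 9 other settings and on the dimmer under 7 of 9. The dimmer probe was kept only through the lines, so its calls are a description and add no support.

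Akr1a1, aldehyde reductase, which in rodents supplies L-gulonate for vitamin C synthesis, rose by a smaller and more even amount. It was at 9.90 in liver, and C5F, C6, N1 and L2 read 11.42, 11.19, 11.22 and 11.13. The lines differed from each other by at most 0.30 and all lay above liver. The rise was 2.54-fold, or 1.34 ± 0.22 on the log2 scale (SE, n = 4 against 1; limma adjusted p = 0.0399). The call held under 6 of 9 other settings, with limma adjusted p-values from 0.0128 to 0.190. Scaled to the median of probes above background, the difference was 1.02 ± 0.41 (SE). Scaled to the 75th percentile it was 0.95 ± 0.37 (SE), and neither passed.

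Akr1b10 went the other way from Akr1b8. The name is shared with the human gene, and the rat enzyme's own role is less described. It was at 8.16 in liver, while C6, N1 and L2 read 4.57, 4.72 and 4.85. The C5F spot was called irregular and left out, so the fit rests on 3 lines. These 3 lines lay within 0.28 of each other and were called above background, but were dim. The Kupffer cell marker Clec4f read a similar 4.37 to 4.65 in the 4 lines. Whether such dim signals are specific was not tested, so the size of the fall may be a bound. The signal fell 11.2-fold, a log2 difference of −3.48 ± 0.25 (SE, n = 3 against 1; limma adjusted p = 0.0253). With the irregular C5F spot kept the difference was −3.35 (adjusted p = 0.0147), and the call held under all 9 other settings that kept the 5 arrays.

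Akr1b7, known in mouse as the vas deferens protein and as an enzyme that reduces isocaproaldehyde, was at 8.73 in liver and at the floor in all 4 lines. It fell at least 39.4-fold (limma adjusted p = 0.00627, the lowest value over all probes, shared with others). Since no line was above background, the fitted −7.39 depends on the floor and its SE of 0.19 comes from the other probes. The call held under all 8 other settings that tested the probe on 5 arrays. Since the probe was kept only because it was bright in liver, these calls are a description and add no support.

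**Figure D3:**
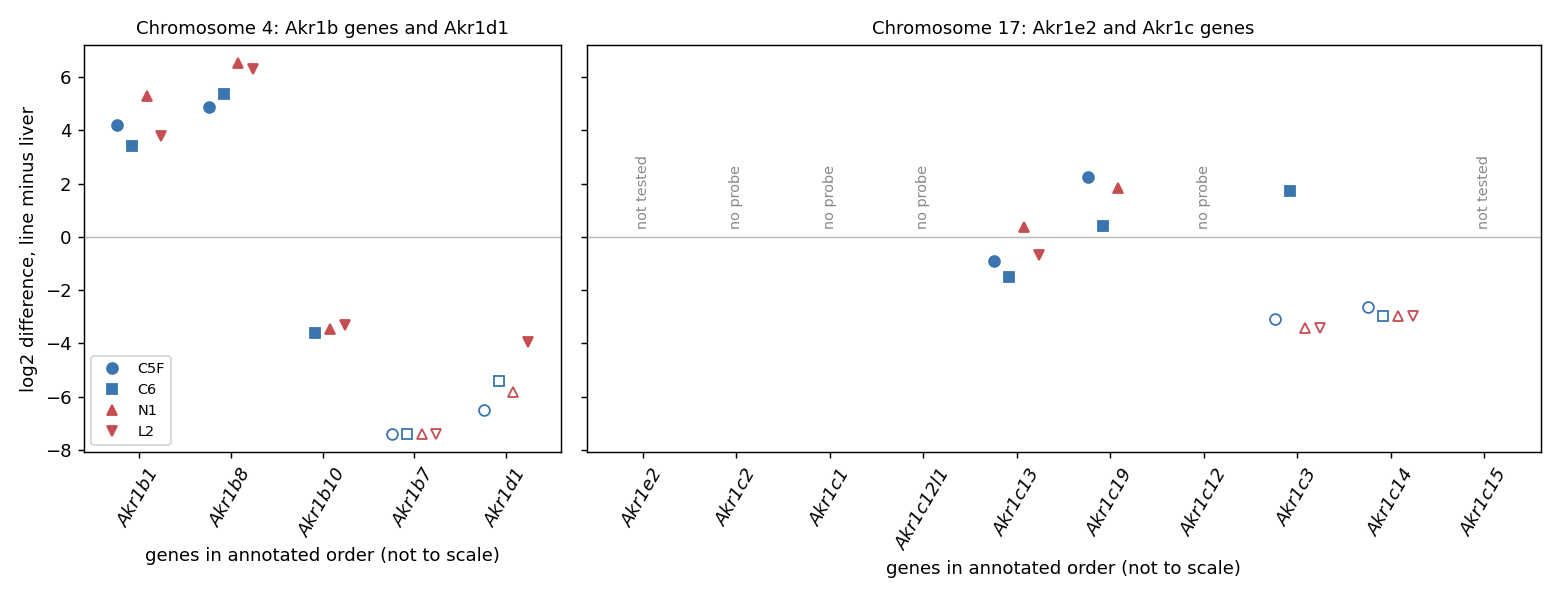
Log2 difference of each line from liver (vertical axis) for family genes on chromosomes 4 and 17, in annotated order and not to scale (horizontal axes), using the probe with the highest mean signal of each gene. On chromosome 4 the marks of Akr1b1 and Akr1b8 lie above 0 and those of Akr1b10, Akr1b7 and Akr1d1 below. Open marks are near background in that line. AKR1C3l1, annotated between Akr1c1 and Akr1c12l1, is not drawn.

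Akr1d1, the steroid 5β-reductase of bile acid synthesis, has 2 probes that disagree in size. The brighter was at 8.63 in liver and at 4.67 in L2, and near background in C5F, C6 and N1 at 2.15, 3.24 and 2.80. It fell by 5.42 ± 0.94 (SE, n = 4 against 1; limma adjusted p = 0.0436), a size that depends partly on near-background spots, while L2, the line with a measured level, stood at −3.96 from liver. The other probe read 4.85 in liver and 4.04, 3.77, 4.04 and 3.87 in C5F, C6, N1 and L2. Its difference of −0.92 ± 0.23 did not pass (limma adjusted p = 0.0808). The call on the brighter probe held under 7 of 8 other settings and was lost without the filter (limma adjusted p = 0.123). This probe was kept only through its liver spot, since L2 alone of the lines was above background. These calls are therefore a description and add no support. Which of the probes reads the transcript better was not tested.

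Of the Akr1c genes, which lie in a row on chromosome 17 with Akr1e2, 5 have a probe: Akr1c3, Akr1c13, Akr1c14, Akr1c15 and Akr1c19. Akr1c1, Akr1c2, Akr1c12 and Akr1c12l1 have no probe with their symbol. AKR1C3l1, annotated between Akr1c1 and Akr1c12l1, is spelled in capitals, was not matched and was not examined. These genes are close relatives, as are the Akr1b genes and their pseudogenes, and whether a probe also reads a relative was not tested. Akr1c14, the 3α-hydroxysteroid dehydrogenase of rat liver, was at 4.33 in liver and near background in all 4 lines, at 1.69 in C5F and at the floor in the others. It fell at least 1.86-fold (limma adjusted p = 0.0150). The liver spot was itself dim, with a signal of 20.1 where the lowest above-background signal of that array was 14.6. Since the probe was kept only through liver, this call is a description. With an offset of 50 in place of the floor its difference was −0.44 and did not pass (adjusted p = 0.0616).

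Akr1c13 and Akr1c19, hydroxysteroid dehydrogenases studied in mouse, did not pass. The RefSeq table gives Akr1c12 as an older symbol of Akr1c13 and the reverse, and the probe is named here through its gene identifier. Akr1c13 was at 8.97 in liver, and C5F, C6, N1 and L2 read 8.07, 7.47, 9.33 and 8.28. Only N1 was above liver, and the difference was −0.68 ± 0.55 (SE; limma adjusted p = 0.423). Akr1c19 was at 7.14 in liver, 9.39 in C5F, 7.54 in C6 and 8.96 in N1, with an irregular spot in L2. All 3 measured lines were above liver, by 0.40 to 2.25, and the difference of 1.58 ± 1.01 (SE) did not pass (limma adjusted p = 0.363).

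Akr1c3, the rat 20α-hydroxysteroid dehydrogenase that inactivates progesterone, differed among lines, with C6 above liver and C5F, N1 and L2 below it. It was at 4.78 in liver and 6.51 in C6, but near background in C5F, N1 and L2 at 1.71, 1.34 and 1.34. C6 was thus above liver by 1.73 while the other lines had no level above background. With the brighter Akr1d1 probe it is 1 of 2 kept family probes above background in 1 of the 4 lines. These are 2 of 12 kept probes usable in all 4 lines, against 4.6% of all such probes. The filter keeps a probe above background in 1 line only if liver is above background too. Its difference from liver, −2.05 ± 2.05 (SE), did not pass (limma adjusted p = 0.508). Akr1c15, another Akr1c gene, was not kept and was above background in N1 alone, at 4.15. Akr1e2, the 1,5-anhydro-D-fructose reductase, was near background on all 5 arrays with both probes.

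The Akr7 genes were bright in every sample and did not pass. Akr7a2, a succinic semialdehyde reductase, was at 9.59 in liver, and C5F, C6, N1 and L2 read 10.11, 9.00, 9.98 and 9.08. C5F and N1 were above liver and C6 and L2 below, so the groups overlap, and the difference was −0.044 ± 0.64 (SE; limma adjusted p = 0.965). Akr7a3, the aflatoxin aldehyde reductase of rat liver, was at 8.26 in liver, and C5F, C6, N1 and L2 read 9.56, 8.72, 9.41 and 8.02. L2 alone lay below liver. The difference was 0.66 ± 0.72 (SE; limma adjusted p = 0.538).

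The second comparison, of the high-metastatic with the low-metastatic lines, concerns transcripts linked to metastasis. Akr1b8 was the family probe with the widest class difference relative to its error, with 10.11 and 9.89 in the high-metastatic lines against 8.48 and 8.96 in the low-metastatic lines. Both high-metastatic lines lay above both others. The difference of 1.28 ± 0.26 (SE, n = 2 lines per class), or 2.44-fold, had an unadjusted limma p of 0.0116 but did not pass after adjustment (adjusted p = 0.670). It ranged from 1.07 to 1.53 when each line was left out in turn. None of the 14 family probes and none of all 13741 tested probes passed (0%). At an unadjusted limma p under 0.05 there were 1 of 14 family probes and 1005 probes in all (7.31%). No exact permutation p below 0.333 is possible with 2 lines against 2.

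Akr1c13 also had both high-metastatic lines above both low-metastatic lines, with a difference of 1.04 ± 0.49 (SE; limma adjusted p = 0.731) that was 0.51 without N1 and 1.60 without L2. Akr1c3 had both low-metastatic lines above, but C5F, N1 and L2 were all near background there. So 3 of the 12 kept family probes usable in all 4 lines separated the classes, against 36.7% of all such probes. They were 2 with both high-metastatic lines above, against 17.5%, and 1 with both low-metastatic lines above, against 19.2%. Akr1b1 gave 0.73 ± 0.68 and 0.71 ± 0.62 (SE) on its brighter and dimmer probes, with C6 and L2 below C5F and N1, so that the classes overlap. For Akr1a1, Akr7a2 and Akr7a3 the differences were −0.13 ± 0.20, −0.031 ± 0.57 and −0.42 ± 0.64 (SE), each smaller than its error. Akr1b10 gave 0.21 ± 0.26 (SE) over 3 lines.

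**Figure D4:**
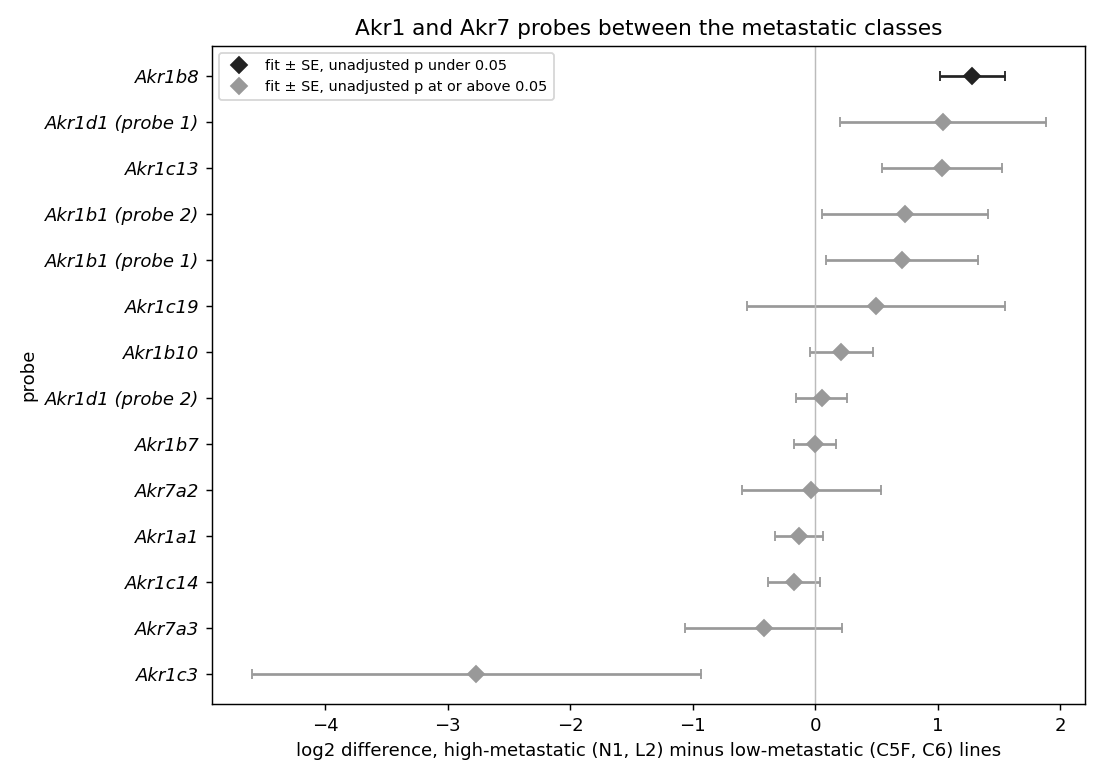
Log2 difference of the high-metastatic lines N1 and L2 from the low-metastatic lines C5F and C6 (horizontal axis) for the 14 family probes kept (vertical axis), as fit and SE. Akr1b8, at 1.28, is the only black mark, with an unadjusted p under 0.05, and no probe passed after adjustment.

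For the 8 family probes above background in all 4 lines, the range from the lowest to the highest line had a median of 1.58, against 0.65 for the 5326 probes of all genes that meet the same condition. N1 was highest for 5 of these 8 probes and C5F for 3, while N1 was highest for 31.6% and C5F for 22.5% of all such probes. C6 was lowest for 5, L2 for 2 and C5F for 1, against 20.4%, 35.7% and 27.5% of all such probes. The 8 probes include 2 of Akr1b1, which share a transcript, and no test was made of these counts.

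Genes with the profile nearest to Akr1b8 over the 5 arrays were sought among 4843 probes of named genes outside the family, by Euclidean distance between log2 profiles centred on their means. Slc7a11, the cystine importer, was nearest, at a distance of 1.12. It was near background at 3.24 in liver and at 7.79, 8.45, 9.05 and 10.35 in C5F, C6, N1 and L2. Plaur, Cdkn2b, Scd2 and Itpr3 followed at distances of 1.32 to 1.46, each with a difference from liver between 4.67 and 5.18. For Akr1b10, compared over the 4 arrays with a usable spot, the nearest were Tbc1d10c, Mst1, Nckap1l, Stab2 and Vwf at 0.19 to 0.20. These 5 genes were near background in every line, whereas Akr1b10 was above background in the 3 lines measured.

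Lists of pathways that neighbour the family gave the setting. Of the NRF2 targets and regulators, which defend cells against electrophiles as several reductases do, 33 of 35 genes were found and 26 tested, of which 7 rose and 0 fell, against 9.01% and 9.38% of all tested probes. Among the risers, Slc7a11 and Abcc1 were near background in liver and kept only through the lines, which favours a higher level there. The count is therefore a description. The median difference was 0.56, against 0.15 for all probes. Nqo1, the quinone reductase, rose by 3.59 ± 0.39, and Slc7a11 rose at least 32.9-fold. Gstp1, a glutathione transferase, rose by 3.17 ± 0.24 without a usable spot in N1. Aldh3a1, an aldehyde dehydrogenase, differed by 5.17 ± 1.84 and did not pass (limma adjusted p = 0.141), with liver and C5F near background. Between the classes, 0 of 29 genes of this list passed and 9 had an unadjusted p under 0.05, against 7.31% of all tested probes, and the median was 0.55, against 0.

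Of the bile acid and steroid genes, among which Akr1d1 and Akr1c14 work, 16 were tested and 9 fell, with 0 rising (median −3.92). Of all tested probes 9.38% fell and 9.01% rose. Genes kept only because they were bright in liver, such as Slc27a5, Sult2a1 and Cyp7a1, which were near background in all 4 lines, had to be lower, so this count too is a description. The fall was at least 426-fold for Slc27a5, which joins bile acids to coenzyme A. It was at least 49.5-fold for Sult2a1, a hydroxysteroid sulfotransferase, and at least 38.5-fold for Cyp7a1, which starts bile acid synthesis from cholesterol. Nr1h4, the bile acid receptor, differed by −6.27 ± 1.59 and did not pass (limma adjusted p = 0.0809). Between the classes 0 of 18 genes passed and 4 had an unadjusted p under 0.05, against the 7.31% of all probes. Hsd17b2, which oxidises oestradiol and testosterone, differed by −1.46 ± 0.22 there, with only C5F of the lines above background.

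Of the other enzymes of carbonyl and polyol metabolism 9 were tested, and Adh4, an alcohol dehydrogenase active on retinol, was the 1 that fell, by 2.66 ± 0.27 (limma adjusted p = 0.0195; list median −1.09). The share of all tested probes that fell was 9.38%. Dhrs3, Dcxr and Khk, for retinal, xylulose and fructose, differed by −4.11 ± 1.29, −3.17 ± 1.49 and −2.50 ± 0.38 and did not pass. Of 9 tested genes of prostaglandin metabolism 0 passed by limma's test, 2 had an unadjusted p under 0.05, against 38.6% of all probes, and the median was −0.082. Ptgs1, cyclooxygenase 1, differed by 2.01 ± 1.50. Ptgr1, a reductase of prostaglandins and alkenals, had no usable spot in liver and stood at 8.43 and 8.24 in C5F and C6 and at 10.02 and 9.40 in N1 and L2, a class difference of 1.37 ± 0.30 (SE; limma unadjusted p = 0.0144) that did not pass.

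**Figure D5:**
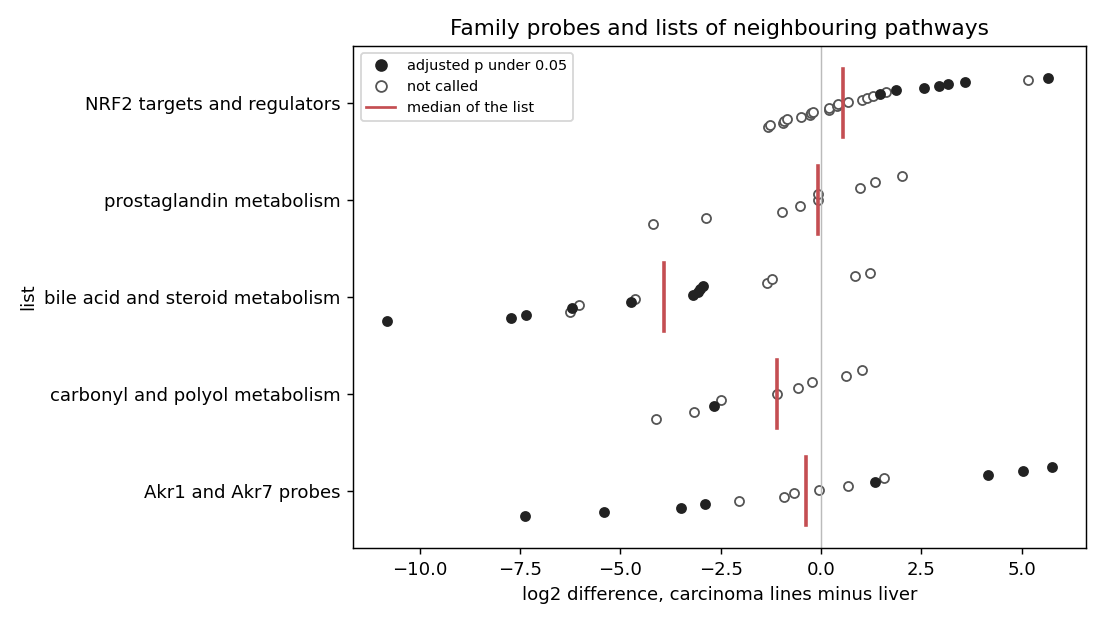
Log2 difference of the carcinoma lines from liver (horizontal axis) for each tested family probe and each tested gene of the 4 neighbouring lists (rows of the vertical axis), filled where the adjusted p was under 0.05, with the list's median as a bar. The family has called points on both sides, with a median of −0.36, the bile acid list lies mostly below 0 and the NRF2 list has called points above 0 alone.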

How the data were processed

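The authors deposited, per the file headers, 1 scan of each slide quantified with CodeLink Expression Analysis 4.1.0.29054. The deposited raw intensity already has background subtracted, since values below 0 occur, and the normalized intensity is the raw intensity divided by the array's median. The deposited value table equals the latter (largest difference 0). Raw intensity of 33849 discovery probes was used. Irregular, contaminated and masked spots were treated as missing. Arrays were quantile normalised (limma 3.58.1, R 4.3.3), floored at the median signal of near-background spots, and log2 values were used. The filter left 16377 probes.

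One limma model with liver, low-metastatic and high-metastatic groups was fitted to all 5 arrays. Its contrasts were the mean of both classes minus liver and high minus low. Tests were two-sided with Benjamini-Hochberg adjustment over 11949 and 13741 probes. Probes without a residual degree of freedom were not tested. The single liver sample is taken to vary like the lines of a class, and p-values measure the spread between lines. The number of arrays limits the precision. The procedure was tested on simulated data.

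A bound ("at least") replaces the fold where a whole group was near background. Names came from the platform annotation, updated through a RefSeq gene table (GRCr8). Promoter windows are RefSeq's. Each probe was fitted on its own, and the brightest stands for a gene in gene counts. All family probes are accounted for. From each of the 4 lists the rule named up to 4 genes with the largest difference from liver and 3 between the classes, of which not all are described. Family members, lists and tests were chosen with earlier results of these data known. Alternatives were other scalings, an offset, the authors' normalized intensity, irregular spots kept, other filters, robust moderation, the lines as 1 group and each line left out.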

Additional observations from a re-analysis of the deposited data

Results flagged for a closer look

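Among the 11 family probes with 4 usable lines and a level above background in at least 1, Akr1c3 and Akr1c15 each had 1 line far from the other 3. Akr1c3 stood at 6.51 in C6, with the next line at 1.71, a gap of 0.929 of the whole range. Akr1c15 stood at 4.15 in N1, with the next line at 1.63, a gap of 0.898 of the range. Both gaps exceed Dixon's critical value for 4 samples. Chance alone gives such a gap in about 1 of 20 groups of values without a floor. Here the other 3 lines were near background in both cases, where values have no order and the floor holds them together. That rate therefore does not apply, and the gaps are a description.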

How the results depend on the processing

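The family count of 8 probes called against liver was 5 with an offset of 50, 5 without a filter and 5 with a stricter filter of 3 arrays above background, and 0 to 2 when each line was left out. The count over all probes, 2198, was 3335 with irregular spots kept, where more probes were tested, and 0 to 617 when each line was left out, with fewer samples. The median difference from liver over all probes was 0.15 and became 0.29 with scaling to the median of probes above background. No probe was called between the classes under any alternative. Of the differences from liver, all kept their sign outside the leave-outs. Without C5F, Akr7a3 and Akr7a2 turned to 0.0064 and 0.53 between the classes. Without C6, Akr7a2 turned to 0.25 against liver and the second Akr1d1 probe to −0.076 between classes. Without N1, the second Akr1d1 probe gave −0.033 and the brighter Akr1b1 probe −0.030 between classes. Without L2, Akr7a2 gave 0.18 against liver, and Akr7a3 and Akr7a2 gave 0.28 and 0.43 between classes. With irregular spots kept, the Akr1c19 class difference turned to −0.60. When each line was left out, the ranges were −0.34 to 0.25 for Akr7a2 against liver and, between the classes, −0.60 to 0.53 for Akr7a2, −1.11 to 0.28 for Akr7a3, −0.076 to 0.20 for the second Akr1d1 probe and −0.030 to 1.54 for the brighter Akr1b1 probe. None of these was called, and the cause was not tested. No paired analysis was possible because replicates have no numbers in common between groups in the labels. Signals near background limit Akr1b7, Akr1c14, Akr1c3 and Akr1d1 in the lines to bounds or fitted values.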

Other observations

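The promoter table held windows of 12 of the 14 family genes. The antioxidant response element core TGACNNNGC occurred in 1 of them, that of Akr1c15, 132 and 61 bases before the start, against 10.2% of all windows. The HNF1 half-site GTTAAT occurred in the window of Akr7a3, 37 bases before the start. The TATA box was found for Akr1c3 and Akr1c19, and the CCAAT box for Akr1b7, Akr1c3, Akr1c14 and Akr1e2. None of the 12 held the AP-1 site or the C/EBP site. A match is a description of letters and not of a site in use.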
